A study of Equus asinus with 2 samples.

Results

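The cells described here were stroma cells of the fetal donkey (Equus asinus) gonad, or of gonad with mesonephros at 4 weeks. In them several of 6 genes, among them NRG1 and SORCS3, were detected together. The cells were chosen by a gate on unique molecular identifiers (UMIs), the tags that count captured transcripts in droplet single-cell sequencing. A cell barcode with at least 1500 UMIs was a member if it held at least 1 UMI of 3 or more of the 6 gate genes NRG1, NWD2, SORCS3, TAFA2, PDZRN4 and ATRNL1, and at least 1 UMI of the stroma gene DCN. It also had to hold no UMI of MSC, TOP2A, MKI67 or RXFP2 and fewer than 10 UMIs of ACTA2 per 10000. The gate found 1797 of 20086 barcodes, which were 1451 of 11994 in the 8-week library and 346 of 8092 in the 4-week library. These NRG1/SORCS3 cells were set against the other barcodes with a DCN UMI, 8705 at 8 weeks and 2749 at 4 weeks. The gate was drawn on the same UMIs that are described here, so the differences between the NRG1/SORCS3 cells and other barcodes are descriptions, with no test.

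The 8-week library was made from fetal tissue labelled ovary, and the 4-week library from gonad together with mesonephros, the transient embryonic kidney that lies beside it. Each stage was 1 library, the labels do not give how many fetuses went into it, and stage, tissue and library cannot be told apart. Intervals below cover counting error only, at 95%. Both libraries carry germ cells as their cell type label, yet 84.7% of the 8-week barcodes and 38.2% of the 4-week barcodes held DCN. In the library labelled ovary, FOXL2, a granulosa cell gene, stood at 2.42 CPM (the summed UMIs of the gene per 1000000 UMIs of the set) in the NRG1/SORCS3 cells and 1.61 CPM in the other DCN-positive barcodes. AMH, the hormone of fetal Sertoli cells, stood there at 352 and 429 CPM, and at 2502 CPM in Sertoli-like barcodes, those with at least 5 Sertoli markers. The markers thus go against the ovary label.

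NRG1 encodes neuregulin 1, a ligand of the epidermal growth factor family that binds the receptors ERBB3 and ERBB4, for which ERBB2 serves as a partner. It is best known from the heart and from peripheral nerve. SORCS3 is a neuronal receptor of the sortilin family, TAFA2 a small secreted protein of the brain, PDZRN4 a protein with PDZ and RING domains, and ATRNL1 a relative of attractin. ITGA4, which the gate did not use, encodes an integrin chain that pairs with ITGB1 or ITGB7 and binds VCAM1 and fibronectin. DCN encodes decorin, a proteoglycan that binds collagen and marks fibroblast-like stroma. Such interstitial cells fill the space between the cords of the fetal gonad. Of the genes the gate excluded, TOP2A and MKI67 mark dividing cells, RXFP2 is the receptor of the hormone INSL3, ACTA2 is the actin of smooth muscle, and MSC is a transcriptional repressor of the helix-loop-helix family.

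The NRG1/SORCS3 cells were 14.3% of the DCN-positive barcodes at 8 weeks (interval 13.6 to 15.0) and 11.2% at 4 weeks (10.1 to 12.3). They were shallow. Their median depth was 3918 UMIs at 8 weeks, against 8884 in the other DCN-positive barcodes, and 8036.5 UMIs at 4 weeks, against 10651. Their summed UMIs came to 8268220 at 8 weeks and 3498514 at 4 weeks. Of the barcode sequences that both libraries share, 38 in all, 7 belonged to NRG1/SORCS3 cells of the 8-week library and 0 to those of the 4-week library. Doublets were not called.

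The gate genes themselves were common in the stroma. At least 3 of the 6 were detected in 65.7% of the DCN-positive barcodes at 8 weeks (6671 of 10156) and in 46.5% at 4 weeks (1439 of 3095). The exclusions then removed 78.2% of these at 8 weeks and 76.0% at 4 weeks. At 8 weeks MSC removed 51.4% of them and TOP2A or MKI67 49.6%, with overlap between the criteria. At 4 weeks MSC removed 9.66% and TOP2A or MKI67 56.8%. RXFP2 removed 23.9% and 30.5% at the 2 stages, and high ACTA2 3.39% and 1.74%. The removed barcodes were deep, with a median of 11817 UMIs at 8 weeks and 14504 at 4 weeks. The NRG1/SORCS3 cells were thus the shallower remainder of a wider population with these genes, and the part that depth played in where the gate fell was not tested.

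Few of the cells held the whole gate set. At 8 weeks 39.6% held exactly 3 gate genes, 32.5% held 4, 21.4% held 5 and 6.48% held 6. At 4 weeks these shares were 46.2%, 30.3%, 16.5% and 6.94%. The commonest combination in both libraries was NRG1 with PDZRN4 and ATRNL1, in 219 of the 8-week cells and 42 of the 4-week cells. Just inside the threshold, at 3 gate genes, were 575 barcodes with a median of 3379 UMIs at 8 weeks and 160 with 7387.5 UMIs at 4 weeks. Just outside it, at 2 gate genes with every other criterion met, were 526 barcodes with 4469 UMIs and 239 with 8008 UMIs. NRG1 was detected in 1146 of the 1451 cells at 8 weeks and 254 of the 346 at 4 weeks, and SORCS3 in 786 and 190, so the gate did not require either. Many detections rested on 1 molecule. Of the NRG1/SORCS3 cells with a UMI of SORCS3, 51.8% at 8 weeks and 42.6% at 4 weeks had exactly 1. For ATRNL1 these shares were 3.67% and 2.03%.

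The level of every gate gene was higher in the NRG1/SORCS3 cells than in the other DCN-positive barcodes, which the gate itself fixed. The difference was modest at 8 weeks and larger at 4 weeks. NRG1 stood at 432 CPM at 8 weeks (418 to 447), against 229 CPM in the other DCN-positive barcodes, and at 208 CPM at 4 weeks (193 to 224), against 75 CPM. The ratio was 1.89 at 8 weeks (1.82 to 1.96) and 2.77 at 4 weeks (2.56 to 3). SORCS3 stood at 190 CPM against 97.5 CPM at 8 weeks and at 149 CPM against 39.1 CPM at 4 weeks, ratios of 1.94 and 3.83. For both genes the level was higher in the NRG1/SORCS3 cells at each stage. NWD2, which encodes a protein with NACHT and WD repeat domains, had ratios of 2.27 and 3.56. TAFA2 had ratios of 2.41 at 8 weeks and 3.45 at 4 weeks, and PDZRN4 of 2.01 and 2.1. ATRNL1 had the smallest 8-week ratio of the 6, 1.56 at 8 weeks (1763 against 1129 CPM), with 2.26 at 4 weeks (1471 against 650 CPM).

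ITGA4 was higher too. The gate did not use it, but it had been given with the rule as a marker of these cells. Its excess is therefore no independent support for them. It stood at 389 CPM at 8 weeks (376 to 403), against 241 CPM in the other DCN-positive barcodes, and at 172 CPM at 4 weeks (159 to 186), against 68.3 CPM. The ratios were 1.62 (1.56 to 1.68) and 2.52 (2.31 to 2.75). DCN itself was 1.26-fold higher at 8 weeks and 2.45-fold higher at 4 weeks. PDGFRA, a growth factor receptor of mesenchyme, was 1.40-fold and 2.26-fold higher.

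Because depth differed, shares of barcodes with a UMI were taken after each barcode was thinned to 1500 UMIs. NRG1 was then detected in 50.7% of the NRG1/SORCS3 cells at 8 weeks, against 24.9% of the other DCN-positive barcodes, and in 28.3% at 4 weeks, against 10.9%. Without thinning the shares were 79.0% against 59.5% and 73.4% against 39.8%. ITGA4 was detected after thinning in 48.3% (45.7 to 50.9) against 30.6% (29.6 to 31.6) at 8 weeks, and in 23.1% (18.8 to 27.9) against 12% (10.8 to 13.3) at 4 weeks. Without thinning, ITGA4 was at 75.2% against 68.1% and 65.3% against 43.8%.

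A share of such detections could be RNA outside cells, and barcodes of other types served as the comparison. In endothelial-like barcodes, with a median of 11127 UMIs at 8 weeks and 9931 at 4 weeks before thinning, NRG1 was found in 12.2% and 1.36% after thinning. In macrophage-like barcodes, with medians of 5961.5 and 6984 UMIs, it was found in 5.37% at 8 weeks and in 0 of 128 at 4 weeks, which allows a share of up to 2.34%. SORCS3 was found in 5.27% and 0.743% of the endothelial-like barcodes, against 31.2% and 22.3% of the NRG1/SORCS3 cells. NRG1 and SORCS3 are gate genes, so nothing is read from their excess over the other types. ITGA4, outside the gate but a marker given with the rule, was found in 12.5% and 1.43% of the endothelial-like barcodes. It was found in 14.0% and 7.81% of the macrophage-like ones, against 48.3% and 23.1% of the NRG1/SORCS3 cells. DCN was found in 90.4% of the NRG1/SORCS3 cells at 8 weeks and in 33.8% of the endothelial-like barcodes, and in 81.2% and 5.20% at 4 weeks. In endothelial-like barcodes DCN and NRG1 were therefore both found more often in the 8-week library. These barcodes were not required to lack DCN, and 59.1% held it at 8 weeks before thinning. They thus overlapped the DCN-positive set and were not a measure of RNA outside cells alone.

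**Figure D1:**
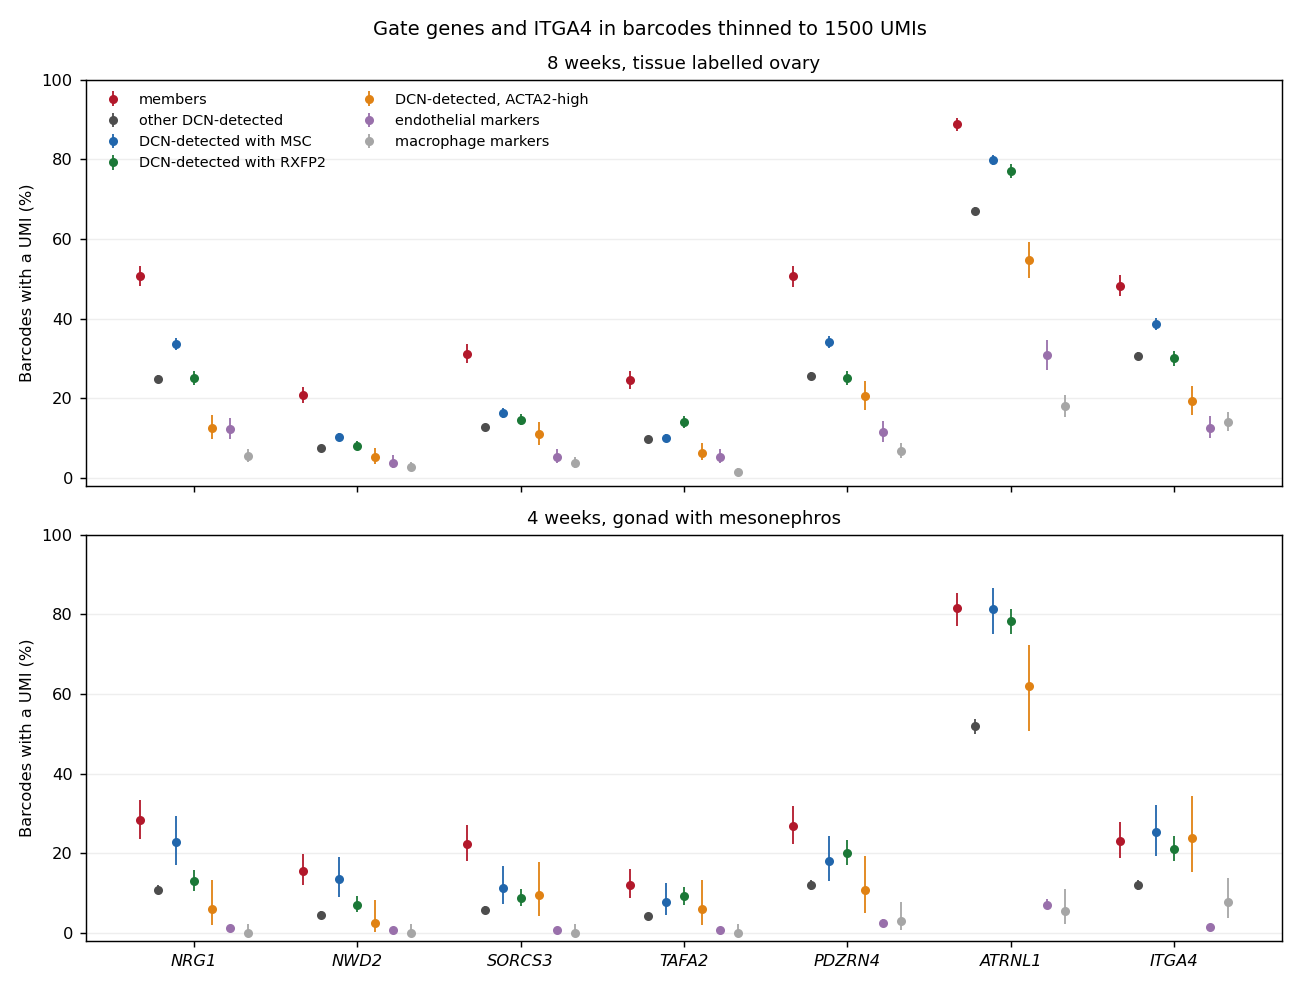
Percent of barcodes with at least 1 UMI of each of the 6 gate genes and of ITGA4 after thinning to 1500 UMIs, in the NRG1/SORCS3 cells (members) and 6 other sets of barcodes, at 8 weeks (top) and 4 weeks (bottom); bars are exact 95% binomial intervals. The NRG1/SORCS3 cells stand highest for each of the 6 gate genes in both panels, for ATRNL1 at 4 weeks by 81.5% against 81.3% in MSC-positive barcodes, while for ITGA4 at 4 weeks the MSC-positive barcodes (25.4%) and the ACTA2-high barcodes (23.8%) are as high as the NRG1/SORCS3 cells (23.1%).

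Each gate gene was also described where the gate was drawn on the other 5. All 6 had been chosen with these data known, so this is no independent support for their occurring together. The comparison barcodes include those that the exclusions removed, so the sets differ in more than the gate genes. Among DCN-positive barcodes thinned to 1500 UMIs that met the exclusions and held at least 3 of the other gate genes, NRG1 was found in 55.3% at 8 weeks (52.0 to 58.6), against 30% (28.9 to 31.1) of the other DCN-positive barcodes. SORCS3 was found in 30% (27.4 to 32.7), against 15.9%, and PDZRN4 in 52.6%, against 31.5%. At 8 weeks the intervals stood apart for each of the 6 genes. At 4 weeks the sets were small, between 35 and 106 barcodes. NWD2 was found there in 17.5% (10.6 to 26.6), against 7.35%, and SORCS3 in 19.8% (12.4 to 29.2), against 10.1%, with intervals apart. NRG1 was found in 23.2% (14.6 to 33.8), against 16.4% (14.7 to 18.2). For NRG1, TAFA2, PDZRN4 and ATRNL1 the intervals overlapped at 4 weeks.

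**Figure D2:**
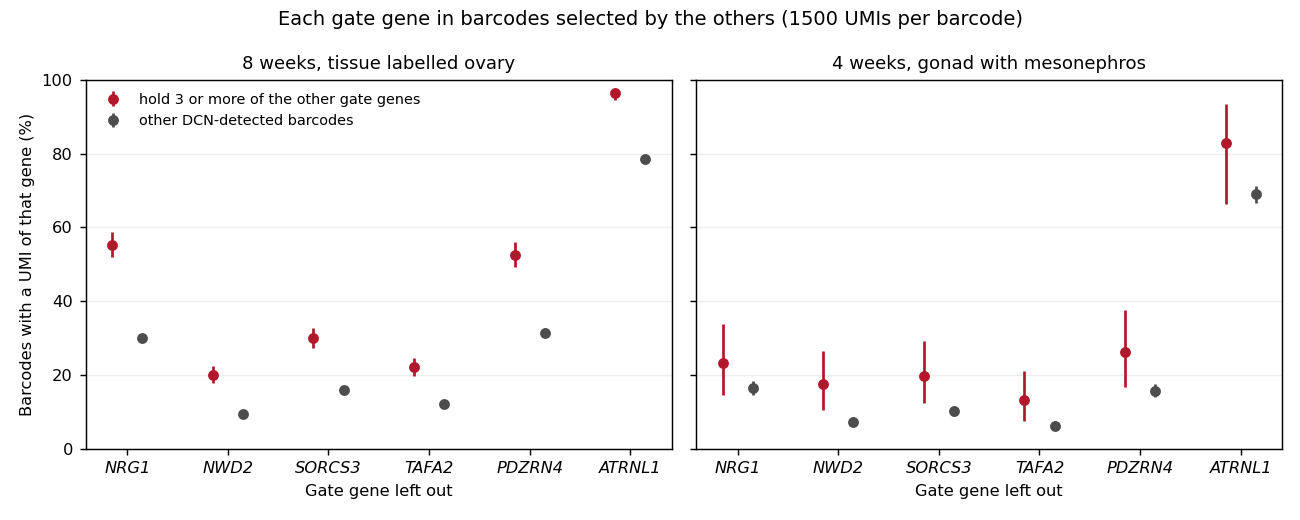
Percent of barcodes with each gate gene among those holding at least 3 of the other gate genes and meeting the exclusions, and among the other DCN-positive barcodes, all thinned to 1500 UMIs, at 8 weeks (left) and 4 weeks (right); bars are exact 95% binomial intervals. At 8 weeks each gene is higher in the first set, for example NWD2 at 20% against 9.47%, and at 4 weeks the intervals are wide. The second set includes barcodes that fail the exclusions.

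At equal depth, several genes outside the gate followed the number of gate genes. Of these, ITGA4 had been given with the rule as a marker. Among DCN-positive barcodes that met the exclusions, thinned to 1500 UMIs, ITGA4 stood at 115, 301, 453 and 599 CPM at 8 weeks in barcodes with 0, 1, 2 and 3 or more gate genes. At 4 weeks it stood at 37.2, 123, 221 and 242 CPM. ITGA4 was thus higher with every added gate gene at 8 weeks, while at 4 weeks the intervals of the last pair overlapped. TENM2, a teneurin that bridges neighbouring cells, stood at 148, 430, 585 and 965 CPM at 8 weeks and at 119, 342, 564 and 637 CPM at 4 weeks. PCDH9, a protocadherin, stood at 997, 2903.5, 3962 and 5834 CPM and at 597, 2310, 3106 and 4454 CPM. FREM1, a protein of the basement membrane zone, stood at 156, 467, 695 and 1134 CPM and at 139, 432, 525 and 854 CPM. These adhesion and matrix genes thus stood in the same order in both libraries, although at 4 weeks neighbouring intervals overlapped for TENM2 and FREM1. Barcodes without gate genes also differed in cell type markers. At 8 weeks AMH stood at 791 CPM in them and 102 CPM with 3 or more gate genes. COL1A1, a stroma marker, was detected in 46.3% and 81.9%. The part of non-stroma barcodes in these series was not tested.

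Other groups behaved differently. PTCH1, the receptor and target of Hedgehog signalling, followed the adhesion genes with 71.2, 167, 207 and 298 CPM at 8 weeks and 47.1, 141, 170 and 217 CPM at 4 weeks, where the intervals from 1 gate gene upward overlapped. Stroma genes varied: PDGFRA stood at 109, 254, 305 and 389 CPM at 8 weeks and at 119, 292, 258 and 356 CPM at 4 weeks. COL1A1, a fibrillar collagen, levelled off. It stood at 721, 1294, 1461 and 1371 CPM at 8 weeks and at 545, 1313, 1443 and 1353 CPM at 4 weeks. CYP17A1, a steroid hormone enzyme, ran the other way, with 1246, 316, 149 and 83.2 CPM at 8 weeks and 625, 254, 65.0 and 29.6 CPM at 4 weeks. ERBB4, the neuregulin receptor, stood at 125, 78.8, 30.3 and 27.1 CPM and at 173, 73.3, 30.2 and 19.8 CPM. Barcodes with more gate genes therefore held less of the steroid enzyme and of ERBB4 per UMI. Between 2 and 3 or more gate genes the intervals overlapped for ERBB4 in both libraries and for CYP17A1 at 4 weeks. The last 4-week set rested on 4 UMIs of ERBB4 and 6 of CYP17A1. Counts in one barcode compete for the same thinned total, and the part of that in these series was not tested.

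**Figure D3:**
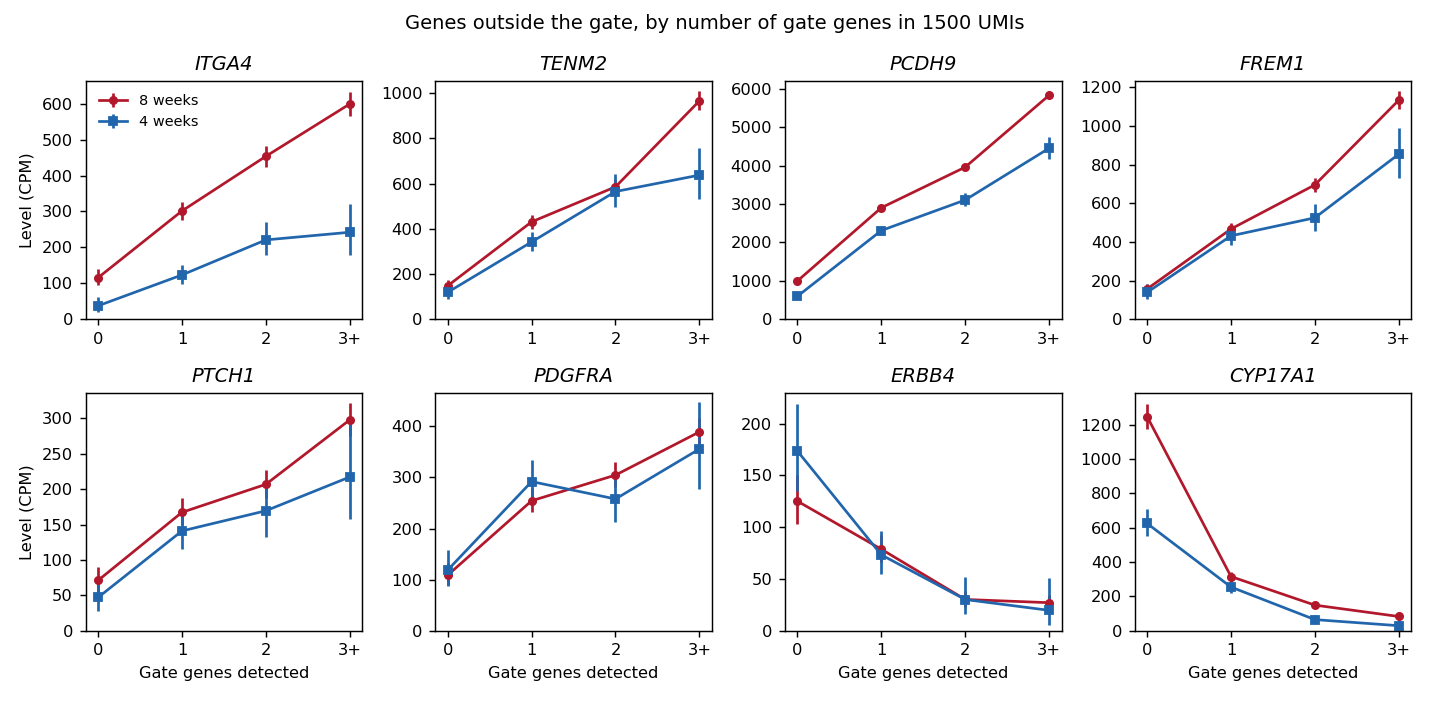
Level in CPM of 8 genes outside the gate, by the number of gate genes detected (0, 1, 2, or 3 and more), in DCN-positive barcodes that met the exclusions and were thinned to 1500 UMIs; circles are 8 weeks, squares 4 weeks, bars exact 95% Poisson intervals. ITGA4, TENM2, PCDH9, FREM1 and PTCH1 are higher from left to right, and ERBB4 and CYP17A1 are lower, with some neighbouring intervals overlapping. Barcodes without gate genes held more of the Sertoli gene AMH than those with 3 or more, 791 against 102 CPM at 8 weeks.

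Membership changed when depth was made equal. With the gate applied to 1500 UMIs from each barcode, 18.3% of the DCN-positive barcodes passed at 8 weeks (1450 of 7944) and 7.45% at 4 weeks (135 of 1812). Of the NRG1/SORCS3 cells named at full depth, 53.2% passed again at 8 weeks and 22.3% at 4 weeks, a loss that includes single UMIs dropped by the thinning.

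Stroma markers were present in the NRG1/SORCS3 cells. All 9, with DCN of the gate among them, were detected in both libraries, at a summed 6145 CPM in the NRG1/SORCS3 cells and 5462 CPM in the other DCN-positive barcodes at 8 weeks, and at 5558 and 2782 CPM at 4 weeks. Of the 8 outside the gate, 6 were above the other DCN-positive barcodes in both libraries and 0 below, against 30% and 36.1% of all features. Their median log2 ratios were 0.11 at 8 weeks and 0.86 at 4 weeks. Markers of other types were present too. Steroidogenic markers summed to 2088 CPM in the NRG1/SORCS3 cells and 1669 CPM in the others at 8 weeks, and to 1116 and 1609 CPM at 4 weeks. At 8 weeks 5 of the 6 were higher in the NRG1/SORCS3 cells, with a median log2 ratio of 0.32, above that of the stroma markers. Sertoli markers summed to 504 and 588 CPM at 8 weeks and to 230 and 632 CPM at 4 weeks. The steroid markers were unevenly spread among the members. CYP17A1 stood at 1669, 939, 507 and 391 CPM in 8-week cells with 3, 4, 5 and 6 gate genes, and at 790, 625, 137 and 12.5 CPM in the 4-week cells. It was also read in endothelial-like barcodes, at 182 CPM at 8 weeks and 115 CPM at 4 weeks, and in macrophage-like barcodes, at 284 and 196 CPM. Macrophage markers summed to 194 CPM in the NRG1/SORCS3 cells at 8 weeks and 30.9 CPM at 4 weeks, and endothelial markers to 169 and 257 CPM. The part of free RNA and of doublets in these levels was not tested.

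Across all genes few were set apart from the rest of the stroma. Of 17089 features with at least 50 UMIs, 38 were at least 2-fold higher in the NRG1/SORCS3 cells in both libraries (0.222%) and 401 at least 2-fold lower (2.35%). In single libraries 126 were higher (0.737%) and 671 lower (3.93%) at 8 weeks, and 500 higher (2.93%) and 1967 lower (11.5%) at 4 weeks. None of the 38 had both a gene symbol and 50 CPM in both libraries. Most of the 12 lower genes with a symbol and the largest differences were genes of cell division. PCLAF, a gene of DNA replication, and H1-1, a linker histone, were also among them. CENPF, a kinetochore protein, stood at 25.4 CPM against 263 CPM at 8 weeks and 18.3 CPM against 454 CPM at 4 weeks. CCNB1, the mitotic cyclin, stood at 12.5 against 83.5 CPM and at 4.57 against 92.2 CPM. Dividing barcodes had been removed by the gate through TOP2A and MKI67, so nothing is read from these levels.

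Genes of synaptic adhesion were mixed, with more above than below the other DCN-positive barcodes in both libraries. Of 32 tested, 18 were above the other DCN-positive barcodes in both libraries and 4 below in both, where 30% of all features were above in both and 36.1% below. None reached 2-fold in both. The median log2 ratio was 0.34 at 8 weeks and 0.24 at 4 weeks, against 0.01 and -0.08 over all features. At 4 weeks alone 4 of the 32 were at least 2-fold higher and 7 at least 2-fold lower. Among the lower, CADM1, an adhesion molecule of epithelia and synapses, stood at 57.3 against 62.7 CPM at 8 weeks and 59.7 against 219.5 CPM at 4 weeks. CDH8, a cadherin, stood at 4.60 against 4.59 CPM and 5.43 against 44.3 CPM. TENM2 stood at 625 CPM against 314 CPM at 8 weeks and 470 CPM against 196 CPM at 4 weeks, ratios of 1.99 (1.93 to 2.05) and 2.40 (2.27 to 2.53). CNTN5, a contactin of neuronal membranes, had ratios of 1.97 at 8 weeks (302 against 153 CPM) and 2.35 at 4 weeks (306 against 130 CPM). Both TENM2 and CNTN5 were near 2-fold at 8 weeks. CADM2, a cell adhesion molecule of synapses, stood at 105 against 71.6 CPM and at 201 against 85.0 CPM. NLGN1, a neuroligin, stood at 482 against 318 CPM and at 354 against 224 CPM.

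Several more adhesion and signalling genes were higher without being in the gate, and these were chosen after their values were seen. PCDH9 had 3751 CPM against 2133 CPM at 8 weeks and 2614 CPM against 996 CPM at 4 weeks, ratios of 1.76 (1.74 to 1.78) and 2.62 (2.57 to 2.68). PCDH7, another protocadherin, had ratios of 1.72 and 2.31. FREM1 had 667 against 373 CPM and 487 against 218 CPM, ratios of 1.79 and 2.23. None of these reached 2-fold at 8 weeks and all did at 4 weeks. ADCY8, a calcium-stimulated adenylyl cyclase, had ratios of 1.79 and 2.26. ITGA9, an integrin chain close to ITGA4, had 303 against 191 CPM and 332 against 152 CPM. RYR3, an intracellular calcium channel, showed the larger ratio at 8 weeks, 2.06 (180 against 87.3 CPM), with 1.58 at 4 weeks (51.2 against 32.5 CPM). These genes were also high in other stroma that the gate excluded. At 4 weeks PCDH7 stood at 1312 CPM in the NRG1/SORCS3 cells and 1334 CPM in the DCN-positive barcodes with RXFP2, EPHA3 at 189 and 190.4 CPM, UNC5D at 65.5 and 72.5 CPM, and PCDH9 at 2614 and 2371 CPM.

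Axon guidance genes were mixed. Of 36 tested, 16 were above and 11 below in both libraries, against 30% and 36.1% of all features. The medians were 0.09 and -0.04. Those above included ephrin and Eph partners. EPHA3, a receptor for A-type ephrins, stood at 181 against 113 CPM at 8 weeks and 189 against 80.4 CPM at 4 weeks. EFNA5, an A-type ephrin, stood at 403 against 259 CPM and 603 against 283 CPM. ROBO2, a Slit receptor, stood at 518 against 309 CPM and 717 against 510 CPM. UNC5D, a netrin receptor, had ratios of 1.84 and 2.15.

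Receptors and relatives of the gate genes went in both directions. Of 15 genes of the neuregulin and ERBB family tested, 2 were above and 5 below in both libraries, against 30% and 36.1% of all features, with medians of 0.09 at 8 weeks and -0.52 at 4 weeks. ERBB4 was lower, at 70.3 CPM against 82.6 CPM at 8 weeks and 144 CPM against 340 CPM at 4 weeks, ratios of 0.851 and 0.425. It stood at 317 and 816 CPM in Sertoli-like barcodes of the 2 stages. ERBB3 was low in both sets, at 2.06 against 3.26 CPM and 2.86 against 7.94 CPM, and ERBB2 stood at 17.4 against 16.4 CPM and 15.7 against 17.0 CPM. NRG3, another neuregulin, stood at 23.7 against 19.5 CPM at 8 weeks and 20.6 against 81.3 CPM at 4 weeks. After thinning, ERBB4 was found in 4.48% of the NRG1/SORCS3 cells, 3.72% of the MSC-positive barcodes and 7.59% of the other DCN-positive barcodes at 8 weeks, so it was not lower than in all other stroma. In 8-week cells with 3 gate genes ERBB4 stood at 101 CPM.

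Of 12 genes of the sortilin family and its partners, 3 were above and 5 below in both libraries. Over all features 30% were above and 36.1% below in both. SORCS1, the closest relative of SORCS3, stood at 21.9 against 24.7 CPM at 8 weeks and 59.5 against 81.1 CPM at 4 weeks. SORCS2 ran the other way, at 30.4 against 22.3 CPM and 54.0 against 37.8 CPM. TAFA5, a relative of TAFA2, stood at 16.3 against 14.8 CPM and 24.6 against 18.3 CPM. Among 23 integrins and ligands, 6 were above and 11 below in both. ITGB1, the usual partner chain of ITGA4, was about level, at 280 against 298 CPM and 473 against 518 CPM, and ITGB7 was at 0.605 against 0.821 CPM and 0.572 against 1.65 CPM. ITGA8, which binds nephronectin in the embryonic kidney, stood at 133 against 87.0 CPM and 189 against 111 CPM. ITGA7, a laminin-binding chain of muscle, was at 0.968 against 9.93 CPM at 8 weeks and 0.572 against 2.91 CPM at 4 weeks, beside the exclusion of high ACTA2. The ligands of ITGA4 differed little at 8 weeks: VCAM1 stood at 34.7 against 35.1 CPM and FN1 at 141 against 156 CPM. At 4 weeks VCAM1 stood at 40.6 against 21.7 CPM and FN1 at 175 against 126 CPM.

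Matrix genes stood above the other DCN-positive barcodes mainly at 4 weeks. Of 39 tested, 19 were above and 8 below in both libraries, against 30% and 36.1% of all features. The median log2 ratio was 0.02 at 8 weeks but 0.55 at 4 weeks. COL6A3, a chain of collagen VI, stood at 159 against 112 CPM at 8 weeks and 166 against 62.4 CPM at 4 weeks. OGN, a small proteoglycan, stood at 137 against 99.3 CPM and 133 against 48.3 CPM. LAMA2, a laminin chain, stood at 300 against 230 CPM and 348 against 179 CPM. At 4 weeks DCN itself stood at 1231 CPM against 503 CPM, where the 8-week values were 1773 and 1410 CPM. Between stages the matrix list had a median log2 ratio of -0.07 in the NRG1/SORCS3 cells and 0.61 in the other DCN-positive barcodes, so the comparison set differed by stage and the NRG1/SORCS3 cells little.

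Transcription factors of the stroma ran a little higher. Of 37 tested, 21 were above and 7 below in both libraries, against 30% and 36.1% of all features. The medians were 0.11 and 0.27. TSHZ2, a zinc finger homeobox factor, and ZFHX4, a larger one, led with MEIS1 and MEIS2. ZFHX4 stood at 66.3 against 47.0 CPM and 62.6 against 24.6 CPM, and MEIS2 at 363 against 270 CPM and 448 against 323 CPM. TCF21, a factor of gonad and kidney mesenchyme, was level at 8 weeks (59.3 against 58.3 CPM) and higher at 4 weeks (52.0 against 32.3 CPM).

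Among signalling pathways Hedgehog stood out by count. Of 12 genes, 11 were above in both libraries and 1 below, against 30% and 36.1% of all features. The medians were 0.27 and 0.50, and none of the 12 reached 2-fold in both. PTCH1 stood at 210 against 149 CPM at 8 weeks and 148 against 66.5 CPM at 4 weeks, and GLI1, a transcriptional target, at 28.7 against 22.8 CPM and 26.3 against 12.8 CPM. CDON, a co-receptor, stood at 93.6 against 63.9 CPM and 40.3 against 28.8 CPM. Notch genes lay on the other side, with 1 of 16 above and 11 below in both, and medians of -0.59 and -1.12. HES1, a Notch target, stood at 35.1 against 76.3 CPM and 150 against 258 CPM, and JAG1, a Notch ligand, at 16.2 against 31.5 CPM and 44.6 against 84.3 CPM. HEY2 of this list stood at 1.33 CPM in the NRG1/SORCS3 cells and 71.8 CPM in the excluded ACTA2-high barcodes at 8 weeks. Against DCN-positive barcodes with fewer than 3 gate genes that met the same exclusions, the Notch medians were -1.22 and -0.83. The part of the exclusions in the Notch levels was not tested.

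The remaining lists varied, and beside them 30% of all features were above and 36.1% below in both libraries. WNT genes had 9 of 33 above and 11 below, BMP and TGF-beta genes 5 of 30 above and 16 below, and retinoic acid genes 2 of 17 above and 9 below. Growth factors had 9 of 36 above and 14 below, HOX genes 5 of 23 above and 9 below, and TAFA genes 3 of 5 above and 1 below. Hormone receptors had 7 of 11 above and 1 below. GHR, the growth hormone receptor, stood at 201 against 134 CPM at 8 weeks and 167 against 81.4 CPM at 4 weeks. KITLG, the ligand of the KIT receptor of germ cells, was lower, at 44.5 against 60.5 CPM and 54.0 against 93.4 CPM. Immediate stress genes, a sign of dissociation, had 0 of 14 above and 6 below in both. Cell cycle genes had 2 of 29 above and 25 below, which the gate set.

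**Figure D4:**
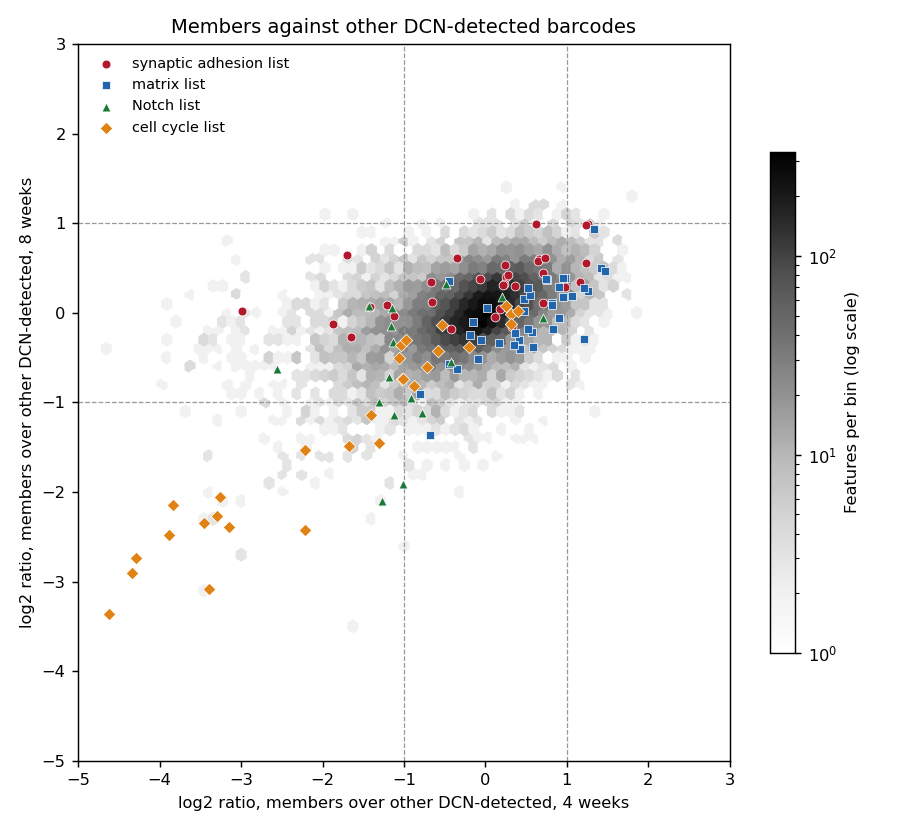
Log2 ratio of summed CPM in the NRG1/SORCS3 cells over the other DCN-positive barcodes, at 8 weeks (y axis) against 4 weeks (x axis), for all features tested (shaded) with 4 gene lists marked and the genes of the gate left out; dashed lines mark 2-fold. Most cell cycle genes lie in the lower left, Notch genes below zero on average, and synaptic adhesion genes on average above it in both libraries.

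The DCN-positive barcodes with MSC, 4054 at 8 weeks and 193 at 4 weeks, also had high gate genes. NRG1 stood at 432 CPM in the NRG1/SORCS3 cells and 303 CPM in the MSC-positive barcodes at 8 weeks, and at 208 and 231 CPM at 4 weeks. ITGA4 stood at 389 and 312 CPM at 8 weeks and at 172 and 175 CPM at 4 weeks. At 4 weeks the NRG1/SORCS3 cells were therefore not higher in NRG1 or ITGA4 than the MSC-positive barcodes. Over all features, 626 of 17464 were at least 2-fold higher in the NRG1/SORCS3 cells at 8 weeks (3.58%) and 496 lower (2.84%), and at 4 weeks 141 of 11203 were higher (1.26%) and 360 lower (3.21%). At 8 weeks the genes highest against the MSC-positive barcodes included macrophage and steroidogenic genes. CCL4, a macrophage chemokine, stood at 189 CPM in the NRG1/SORCS3 cells and 70.5 CPM in the MSC-positive barcodes, C1QA, a complement chain of macrophages, at 55.6 and 21.2 CPM, and STAR, which carries cholesterol to the steroid enzymes, at 115 and 51.6 CPM. Below CCL4 and C1QA in ratio, OPCML, a synaptic adhesion protein, stood at 83.7 and 36.2 CPM. At 4 weeks POSTN, the matrix protein periostin, stood at 70.9 and 25.9 CPM. The MSC-positive barcodes were deeper, with medians of 12432 and 10419 UMIs, and the genes lowest in the NRG1/SORCS3 cells against them were mostly genes of cell division.

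The DCN-positive barcodes with RXFP2 held less NRG1, 240 CPM at 8 weeks and 89.6 CPM at 4 weeks, than the NRG1/SORCS3 cells. Of 16257 features, 322 were 2-fold higher in the NRG1/SORCS3 cells at 8 weeks (1.98%) and 511 lower (3.14%), and at 4 weeks 162 of 13650 were higher (1.19%) and 581 lower (4.26%). STAR stood at 115 CPM in the NRG1/SORCS3 cells and 28.6 CPM in the RXFP2-positive barcodes at 8 weeks. The ACTA2-high barcodes had NRG1 at 103 and 78.6 CPM. Against them 1072 of 13187 features were 2-fold higher in the NRG1/SORCS3 cells at 8 weeks (8.13%) and 699 lower (5.3%), and at 4 weeks 749 of 9648 were higher (7.76%) and 308 lower (3.19%). Those lower held muscle genes. ACTG2, a smooth muscle actin, stood at 3.27 CPM in the NRG1/SORCS3 cells and 162 CPM in ACTA2-high barcodes at 8 weeks, and RGS5, a pericyte gene, at 18.3 and 347 CPM at 4 weeks.

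Against DCN-positive barcodes that met the same exclusions but held fewer than 3 gate genes, 1271 at 8 weeks and 631 at 4 weeks, the NRG1/SORCS3 cells differed more. This comparison was added after the data had been seen. In both libraries 416 of 12456 features were at least 2-fold higher (3.34%) and 570 lower (4.58%). In single libraries 8.12% were higher and 9.1% lower at 8 weeks, and 4.32% and 7.61% at 4 weeks. Of the Hedgehog genes 6 of 12 were 2-fold higher in both and 1 lower, of synaptic adhesion genes 9 of 30 higher and 0 lower, of transcription factors 10 of 33 higher and 0 lower, and of matrix genes 8 of 37 higher and 0 lower. CADM2 stood at 105 CPM in the NRG1/SORCS3 cells and 18.5 CPM in these barcodes at 8 weeks, and FREM1 at 667 and 149 CPM. At 4 weeks ITGA4 stood at 172 and 35.6 CPM, and LHX9, a factor of the early gonad, at 146 and 34.2 CPM. On the other side, 6 of 6 steroidogenic, 6 of 8 Sertoli, 6 of 7 germ cell, 7 of 11 endothelial and 5 of 6 macrophage markers were 2-fold lower in both. HBA1, a haemoglobin chain, stood at 13.3 and 391.9 CPM at 8 weeks, and C1QA at 55.6 and 355.6 CPM. The barcodes with fewer than 3 gate genes thus held markers of many types outside the stroma. CYP17A1 stood at 557 CPM in the NRG1/SORCS3 cells and 3577 CPM in these barcodes at 4 weeks. The cell cycle list, with the exclusion now shared, had 0 of 25 genes past 2-fold in either direction.

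Between stages, the NRG1/SORCS3 cells of the 8-week library held more of every gate gene per UMI than those of the 4-week library. The gate itself required UMIs of at least 3 of these genes in each cell. The 8-week cells met it at a median depth of 3918 UMIs and the 4-week cells at 8036.5 UMIs. The part of the gate and of depth in the stage differences of the gate genes was not tested. NRG1 was 2.08-fold higher, PDZRN4 2.02-fold, TAFA2 1.45-fold, SORCS3 1.27-fold, NWD2 1.22-fold and ATRNL1 1.20-fold. ITGA4 was 2.26-fold higher. The other DCN-positive barcodes moved the same way and by more: on the log2 scale NRG1 differed by 1.05 in the NRG1/SORCS3 cells and 1.61 in the others, SORCS3 by 0.34 and 1.32, and ITGA4 by 1.18 and 1.82. In endothelial-like barcodes, which could also hold DCN, NRG1 stood at 172 CPM at 8 weeks and 14.8 CPM at 4 weeks, the same direction.

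Over all genes, 667 of 12864 features were at least 2-fold higher in the 8-week NRG1/SORCS3 cells (5.19%) and 624 lower (4.85%). In the other DCN-positive barcodes these were 499 (3.88%) and 883 (6.86%). INSL3, the hormone of fetal Leydig cells, stood at 232 CPM at 8 weeks and had 0 UMIs at 4 weeks, where 3 UMIs would be 0.858 CPM, so it was at least 271-fold higher at 8 weeks. CCL4 stood at 189 CPM at 8 weeks and 4.86 CPM at 4 weeks, and at 7902 and 2740.5 CPM in the macrophage-like barcodes. SPP1, or osteopontin, stood at 281 and 24 CPM. All of these also differed in the other DCN-positive barcodes, where INSL3 stood at 196 and 11.9 CPM and CCL4 at 213 and 11.1 CPM.

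Other genes differed by less. NEGR1, a neuronal adhesion protein, stood at 122 CPM at 8 weeks and 34.0 CPM at 4 weeks, 3.60-fold higher (2.97 to 4.39). APOA1, an apolipoprotein, stood at 295 and 104 CPM. RYR3 stood at 180 and 51.2 CPM and CST3, a protease inhibitor, at 716 and 227 CPM. AMH stood at 352 and 121 CPM in the NRG1/SORCS3 cells, and at 148 and 108 CPM in endothelial-like barcodes. CITED1, a transcriptional co-regulator, stood at 316 and 91.5 CPM, 3.46-fold higher (3.08 to 3.90), where the other DCN-positive barcodes held 192 and 146 CPM.

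Several genes were lower at 8 weeks. DCDC2, a doublecortin-domain protein, stood at 1.33 CPM at 8 weeks and 120 CPM at 4 weeks, and S100G, a calcium-binding protein, at 3.99 and 208 CPM. ESRRG, an orphan nuclear receptor, stood at 4.96 and 133 CPM. The other DCN-positive barcodes showed DCDC2 at 1.12 and 112 CPM and S100G at 3.07 and 207 CPM. As a whole that set was thus close to the NRG1/SORCS3 cells for both genes. Parts of it were lower in DCDC2 at 4 weeks. DCDC2 stood there at 10.6 CPM in the MSC-positive barcodes, 39.0 CPM in the RXFP2-positive barcodes and 4.21 CPM in the ACTA2-high barcodes. Mesonephros was part of the 4-week tissue only, and tissue and stage cannot be told apart. CTNNA3, an alpha-catenin of cell junctions, stood at 31.6 and 173 CPM and HES1 at 35.1 and 150 CPM, and EPYC, a small proteoglycan of cartilage, at 39.7 and 148 CPM. Most lists differed little by stage: of 30 synaptic adhesion genes 1 was 2-fold higher and 2 lower, and of 38 matrix genes 2 were higher and 3 lower. The cell cycle list had 6 of 28 higher and 1 lower, and BMP and TGF-beta genes had 0 of 26 higher and 5 lower. Over all features these shares were 5.19% and 4.85%. Nothing is read from the cell cycle count, since the gate had excluded barcodes with TOP2A or MKI67 and the stages differed in depth.

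**Figure D5:**
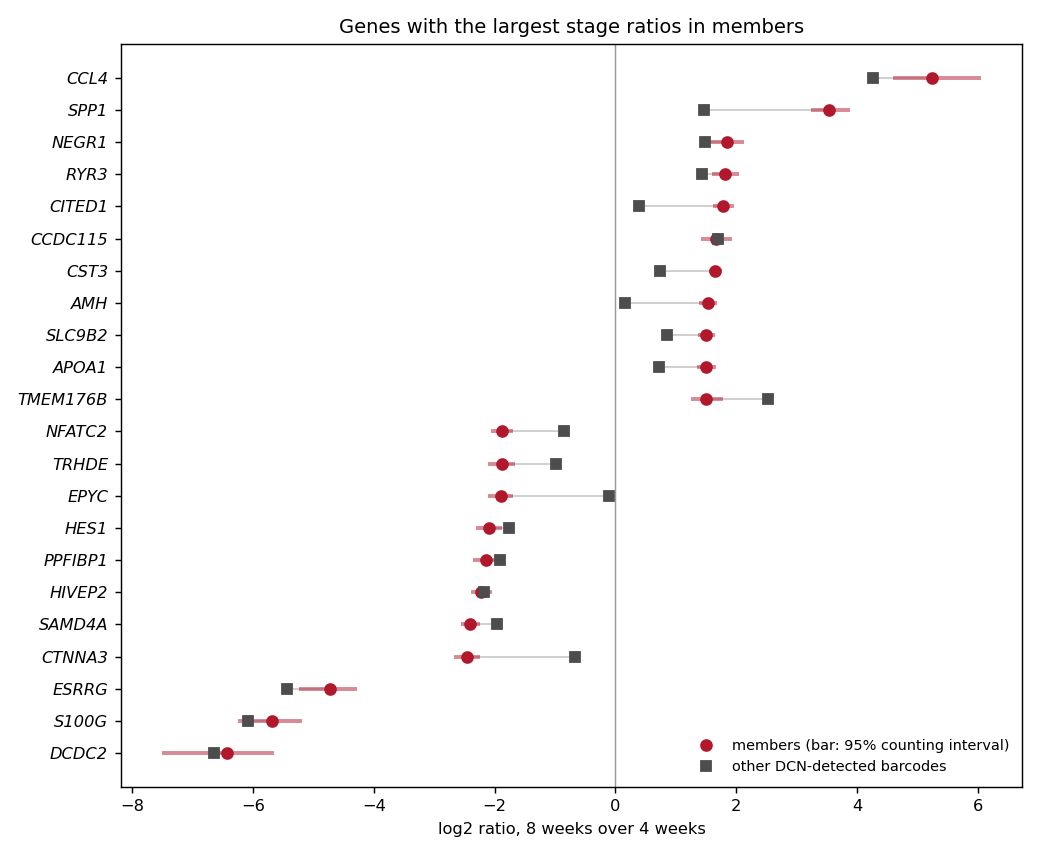
Log2 ratio of 8 weeks over 4 weeks for 22 genes with large stage differences, in the NRG1/SORCS3 cells (members, red circles, with exact 95% counting intervals) and in the other DCN-positive barcodes (grey squares). For each of the 22 genes both sets lie on the same side of zero, among them CCL4, SPP1 and DCDC2.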

How the data were processed

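Single-cell RNA was measured in 2 droplet libraries of fetal donkey tissue, 1 for each stage. The authors deposited UMI counts per gene and barcode as filtered matrices. The file header names Cell Ranger 7.1.0, whereas the submitters' processing notes name Cell Ranger 2.1.1; the genome build is not given in the sources used here. The kit in the labels is a DNBelab C one, although the matrices carry barcodes in Cell Ranger's format.

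Barcodes under 1500 UMIs were left out, 2599 of 14593 at 8 weeks and 846 of 8938 at 4 weeks. UMIs were summed per set of barcodes and library and scaled to CPM over 8268220 and 3498514 UMIs for the members at 8 and 4 weeks, and over 130364793 and 48466788 for the other DCN-positive barcodes. No mitochondrial features are in the matrices, so that share could not be used as a filter. Levels carry exact Poisson intervals, ratios exact conditional binomial intervals and shares Clopper-Pearson intervals. Log2 ratios had 0.5 UMI added to each sum, and features needed 50 UMIs. With 1 library per stage there is no test. Shares were thinned to 1500 UMIs per barcode, leaving out no barcode that passed the minimum. Endothelial-like, macrophage-like and Sertoli-like barcodes held at least 5 markers of that list. Locus identifiers were given symbols from RefSeq (EquAss-T2T_v2) where they matched, 768 in all.

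The members, the 18 gene lists and the 18 marker lists were chosen with earlier results of these data known. Of the list and marker genes, 7 were not found among the feature names. Genes were named by rule: the gate genes and ITGA4; up to 12 genes highest and 12 lowest in members over other DCN-positive barcodes, past 2-fold in both libraries with 50 CPM in the higher set; up to 12 highest and 12 lowest between stages with 100 CPM; and up to 4 per list with 20 CPM. Genes named beyond it were chosen after their values were seen. Alternatives changed the UMI minimum, the number of gate genes, the DCN minimum, whether PDGFRA was required beside DCN, the feature filter and the scaling, and left out the deepest 6% of barcodes. The script was tested on simulated data. Software was Python 3.11.15, numpy 2.4.6, scipy 1.17.1, pandas 2.3.3 and matplotlib 3.10.9.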

Additional observations from a re-analysis of the deposited data

Results flagged for a closer look

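CITED1 differed between the libraries in direction: the log2 ratio of NRG1/SORCS3 cells over the other DCN-positive barcodes was 0.72 at 8 weeks and -0.67 at 4 weeks. CTNNA3 ran the opposite way, with -0.87 at 8 weeks and 0.91 at 4 weeks, and so did EPYC, with -0.70 and 1.09. The difference between stages was not tested for these genes, since each stage is 1 library.

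Signal of the gate also lay outside the cells described. At 8 weeks 300 barcodes under the minimum of 1500 UMIs met the rest of the gate, against 0 at 4 weeks. Among barcodes without a DCN UMI, 183 of 1838 at 8 weeks (9.96%) and 324 of 4997 at 4 weeks (6.48%) held at least 3 gate genes.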

How the results depend on the processing

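No paired analysis was possible because each stage is 1 library. The share of DCN-positive barcodes in the gate, 14.3% at 8 weeks and 11.2% at 4 weeks, moved to 19.5% and 18.9% with 2 gate genes, to 8.63% and 6.01% with 4, and to 18.3% and 7.45% on thinned counts. It was 10.6% at 8 weeks with 3000 UMIs, 15.3% without the deepest 6%, and at 4 weeks 14.8% with 3 DCN UMIs and 16.2% with PDGFRA required beside DCN. With 3000 UMIs (11.5% at 4 weeks) and with PDGFRA (14.9% at 8 weeks) the 8-week share was the lower. The 38 genes higher in both libraries became 23 (3000 UMIs), 78 (4 gate genes), 14 (3 DCN UMIs), 7 (thinned), 21 (without the deepest 6%), 8 (PDGFRA), 257 (10 UMIs per feature) and 416 (same exclusions, chosen after seeing the data). The 401 lower became 627 with 4 gate genes, 124 thinned, 866 as a mean over barcodes and 617 with 10 UMIs. The stage counts, 667 higher and 624 lower, became 1342 and 1557 with 10 UMIs, and 320 lower thinned. Of 2874 values of named genes under these alternatives, 1571 moved by less than counting error, 1293 by more and 10 turned round. Only ratios of at least 2-fold in the main setting could count as turned round. Smaller ratios that changed sign are among the 1571 or the 1293. The 1571 include 302 values under 10 UMIs per feature, a setting that could not change the ratio of a gene. Log2 ratios of the NRG1/SORCS3 cells over the other DCN-positive barcodes that turned round were APOA1 at 4 weeks, 0.12 with 2 gate genes, and CCL4 at 4 weeks, 1.54 with 3 DCN UMIs. So did ERBB4 at 8 over 4 weeks in the NRG1/SORCS3 cells, 0.30 thinned. Under the same exclusions CENPF at 4 weeks was 0.14, ASPM at 8 weeks 0.19, PRC1 at 8 weeks 0.087, KIF11 at 8 weeks 0.44, KIF23 at 4 weeks 0.31, and PCLAF 0.30 and 0.57 at 8 and 4 weeks; there the cell cycle exclusion applies to both sides. For the other changes the cause was not tested. Depth limits genes of few UMIs: 3 UMIs are 0.363 CPM at 8 weeks and 0.858 CPM at 4 weeks.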

Other observations

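IDO1, the first enzyme of tryptophan breakdown, was among the genes of highest level in every set, which was seen after the values. It stood at 7653 CPM in the NRG1/SORCS3 cells and 4458 CPM in the other DCN-positive barcodes at 8 weeks, and at 13606 and 11593 CPM at 4 weeks.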
